A study of Mus musculus with 6 samples.

Results

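Amino acid transporter genes were examined in denervated mouse calf muscle. They were chosen by name alone, as protein-coding genes of the solute carrier families Slc1, Slc3, Slc6, Slc7, Slc36, Slc38 and Slc43 without the creatine carrier Slc6a8, which gave 56 of the 22187 gene rows. These rows carry 55 symbols, since Slc38a9 is listed under 2 identifiers. One of them, Slc7a6os, encodes no carrier and is named only for its place on the strand opposite Slc7a6. The data are RNA sequencing of the left gastrocnemius of male C57BL/6J mice aged 12 weeks on standard chow. The 3 control mice were normal mice with no operation named. In the 3 denervated mice the sciatic nerve of the left leg had been cut out over 2 mm, and the muscle was taken 2 weeks later. The design holds no sham operation, so anaesthesia and surgery cannot be told apart from the loss of the nerve.

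A muscle fibre takes up amino acids for protein synthesis and releases glutamine and alanine when protein is broken down. Many carriers of the Slc38 family move small neutral amino acids with sodium, most of the Slc1 family carry glutamate and aspartate, whereas the Slc7 light chains pair with a heavy chain of the Slc3 family and exchange one amino acid for another. The leucine, glutamine and arginine that these carriers bring in are sensed at the lysosome and help to activate mTORC1, the kinase complex that promotes protein synthesis. Several carrier genes are known targets of Atf4, the transcription factor of amino acid shortage.

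Levels are length-corrected relative abundances (TPM) that carry a further factor for each library. The libraries totalled 976929 to 1128100, and the number of reads behind it is unknown. Log2 fold changes compare log2(level + 1) in denervated and control muscle and come with a standard error (SE), and adjusted p-values come from limma over all 12392 genes at a level of 0.5 or more in at least 3 libraries. This pseudocount understates the change of the many carriers with low levels. A gene is called where the adjusted p is below 0.05, which held for 47.3% of all tested genes, 22.9% higher and 24.3% lower. Muscle fibre markers summed to 28976 to 32491 in controls and 12061 to 14066 after denervation, with 7 of 10 lower and 2 higher as deposited but 3 lower and 4 higher with equal protein-coding totals. Chrna1, a subunit of the acetylcholine receptor, rose from 1.66 ± 0.195 to 105.9 ± 6.90, its fetal partner Chrng from 0.133 ± 0.184 to 35.1 ± 2.46, and Myog, a muscle transcription factor that denervation induces, from 2.48 ± 0.489 to 108.8 ± 9.45. In bulk muscle, fewer cells of a type and less RNA per cell cannot be told apart.

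Carriers of taurine (Slc6a6), small neutral amino acids (Slc38a2) and leucine (Slc7a5) were higher in denervated muscle, and as deposited a carrier of arginine (Slc7a2) and one of glutamine (Slc38a3) were lower. Of the 56 rows 28 reached the level filter, and 11 of these were called higher and 5 lower. That is 39.3% higher against 22.9% of all tested genes, and 17.9% lower against 24.3%. The median log2 fold change was 0.22 over the 28 rows and -0.01 over all genes. Slc7a5 and Slc7a15 passed the filter only through the denervated libraries and Slc38a11 only through the controls, so they could hardly fail to differ, and the counts are given as a description. With another filter, a mean level of 1 or more over the 6 libraries, 8 of 21 rows were higher and 4 lower, or 38.1% higher against 23.1% of all genes. This filter is not free of the same limit. The Slc38a9 row ENSMUSG00000069056, at means of 0.633 in controls and 1.45 after denervation, passed it only through the denervated mice. All 16 called rows were without overlap between the 3 mice of each group. Lack of overlap is common in these data, at 57.5% of all tested genes and 67.9% of the tested carrier rows.

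**Figure D1:**
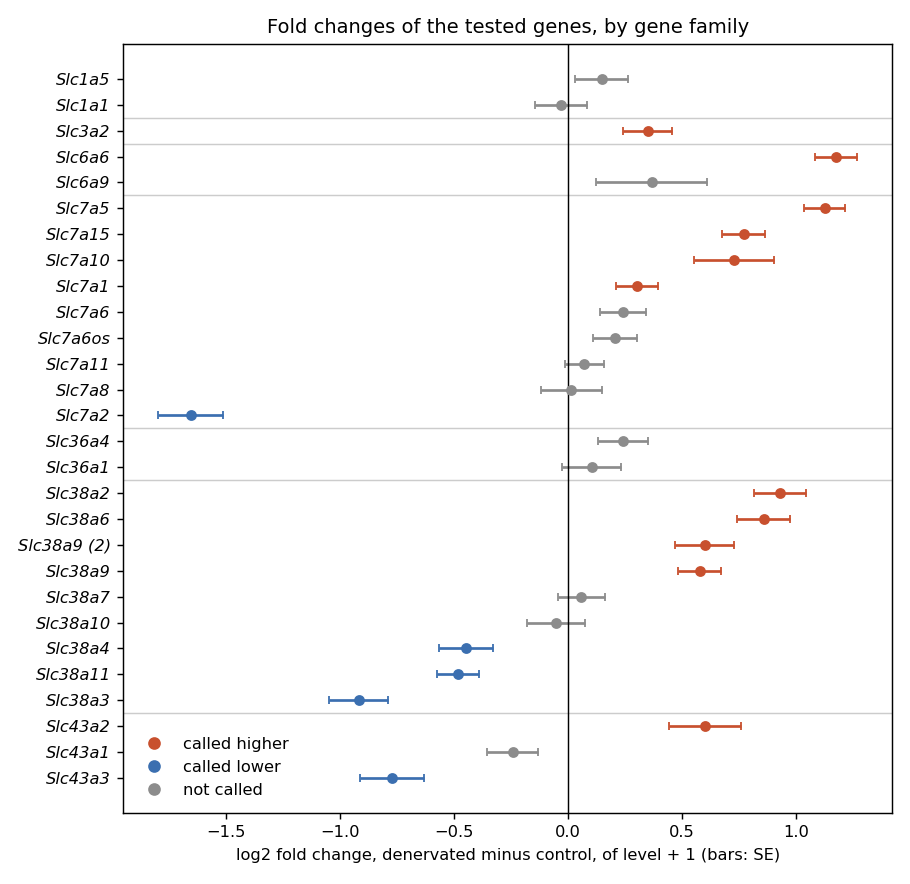
The plot shows the log2 fold change of level + 1, denervated minus control, for the 28 tested rows, with SE as bars and grey lines between gene families. Slc38a9 (2) is the second identifier of that symbol. At this pseudocount Slc6a6 had the highest value, 1.18, and Slc7a2 the lowest, -1.65.

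The taurine carrier had the highest log2 fold change of the 28 tested rows at the pseudocount of 1, whereas at 0.1 Slc7a15 and Slc7a5, which have much lower levels, stood above it (2.60 and 2.48 against 1.23). Slc6a6 (ENSMUSG00000030096) moves taurine, an osmolyte that muscle holds at high concentration, into the fibre with sodium and chloride. It was at 12.2, 12.5 and 11.7 in the controls against 25.8, 29.4 and 31.0 after denervation. The controls lay close together and every denervated mouse was above them by a wide margin. The mean rose 2.37-fold, from 12.1 ± 0.419 to 28.7 ± 2.66 (SD, n = 3 mice per group), with a log2 fold change of 1.18 (SE 0.0937, limma adjusted p = 4.56e-05). By level it went from rank 7 to rank 3 among the carrier rows. Slc6a9, the glycine carrier GlyT1, was at 3.36, 1.58 and 4.07 in controls and at 3.41, 3.77 and 4.82 after denervation. Its groups overlapped, with control 2 below the other 5 mice, and the log2 fold change of 0.37 was not called as deposited (SE 0.244, limma adjusted p = 0.255). Slc6a9 was called higher with equal protein-coding totals and with totals without the 20 most abundant rows.

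The Slc38 family held 66.3% to 72.1% of the summed level of all 56 rows in each library and went both ways, with 4 of 9 tested rows higher and 3 lower. Slc38a2 (ENSMUSG00000022462) encodes SNAT2, the sodium-coupled carrier of alanine, glutamine and other small neutral amino acids that many cells induce when amino acids run short. It was at 14.6, 18.0 and 16.5 in controls and at 28.4, 34.5 and 33.3 in denervated muscle. All 3 denervated values were far above the highest control. The rise was 1.96-fold, with a log2 fold change of 0.93 (SE 0.112, limma adjusted p = 0.00038).

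Slc38a6 (ENSMUSG00000044712), a family member whose substrates are less well known, was the most abundant carrier row in both groups. Its levels were 64.8, 57.2 and 63.3 in controls and 98.9, 129 and 112 after denervation. The lowest denervated value lay well above the highest control. The mean rose 1.83-fold, with a log2 fold change of 0.86 (SE 0.115, limma adjusted p = 0.00063), and the row made up 26.9% to 44.1% of the summed level of all carriers. No exon of another gene overlapped it in the GENCODE M21 annotation.

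Both rows of Slc38a9, the lysosomal carrier that reports arginine to mTORC1, were higher. The row ENSMUSG00000047789 was at 1.49, 1.78 and 1.74 in controls against 3.22, 2.93 and 2.80 after denervation. The row ENSMUSG00000069056, an identifier that GENCODE M21 no longer holds, was at 0.458, 0.956 and 0.485 in controls and at 1.51, 1.44 and 1.40 after denervation. In both, the groups stayed apart, although control 2 of the second row was about as close to the denervated mice as to the other controls. The log2 fold changes were 0.58 (SE 0.0939, limma adjusted p = 0.00168) and 0.60 (SE 0.128, limma adjusted p = 0.00625). Reads shared between 2 models of one gene can be split between their rows, so they are not independent of each other.

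The glutamine carrier of the family went the other way. Slc38a3 (ENSMUSG00000010064) encodes SNAT3, which carries glutamine, histidine and asparagine in either direction. It was at 23.0, 26.9 and 26.5 in controls and at 11.4, 12.2 and 15.7 after denervation. Every denervated mouse was below every control. As deposited the level fell to 0.514 of the control mean (log2 fold change -0.92, SE 0.131, limma adjusted p = 0.000865), whereas equal protein-coding totals brought the change to -0.07 (adjusted p = 0.642, with 0.000531 to 0.642 over its 16 alternatives). By level it was at rank 2 among the carrier rows in controls and at rank 5 after denervation.

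Slc38a4 (ENSMUSG00000022464) encodes SNAT4, another carrier of small neutral amino acids, and is known as an imprinted gene in the mouse. It was at 13.7, 14.4 and 18.3 in controls and at 11.4, 10.6 and 10.9 after denervation. The groups did not overlap, with control 3 the highest. The log2 fold change was -0.45 as deposited (SE 0.117, limma adjusted p = 0.0154). It fell short of a call at -0.12 with totals without the 20 most abundant rows (limma adjusted p = 0.415). With equal protein-coding totals it turned to 0.39 and was called higher. Over its 16 alternatives the limma adjusted p ranged from 0.0132 to 0.415. Slc38a11 (ENSMUSG00000061171), a little-studied member, was at 0.660, 0.784 and 0.575 in controls and at 0.176, 0.278 and 0.139 after denervation, with a log2 fold change of -0.48 (SE 0.0926, limma adjusted p = 0.00385). Its levels are low throughout, and all 3 denervated mice were under the level filter.

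The remaining 2 tested Slc38 genes were not called as deposited. Slc38a10 was at 17.9, 21.5 and 18.0 in controls and at 16.2, 17.8 and 21.5 after denervation, with full overlap of the groups (log2 fold change -0.05, SE 0.126, limma adjusted p = 0.76, turning to 0.80 with equal protein-coding totals). Slc38a7, a lysosomal glutamine exporter, had a log2 fold change of 0.06 (SE 0.102, limma adjusted p = 0.666). Denervated muscle held more Slc38a2 than Slc38a3 transcript in every mouse, and control muscle the reverse.

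**Figure D2:**
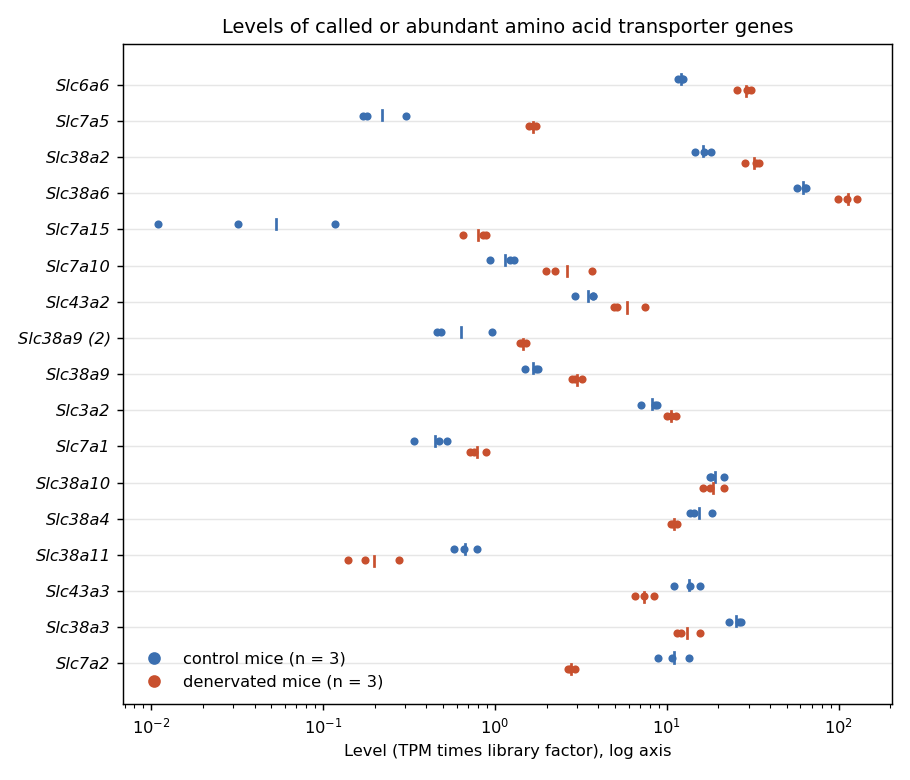
The plot shows the level of each carrier in each mouse on a log axis (TPM times library factor), for the 16 called rows and the abundant Slc38a10, with short vertical lines at the group means. Blue points are the 3 control mice and orange points the 3 denervated mice. The groups overlap only for Slc38a10.

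The light chain of a leucine exchanger was higher, from a very low base. Slc7a5 (ENSMUSG00000040010) encodes LAT1, which takes up leucine and other large neutral amino acids in exchange for an internal one. It was at 0.181, 0.172 and 0.305 in controls and at 1.66, 1.74 and 1.57 in denervated muscle. The controls were all under the level filter and the denervated mice were tightly grouped above it. The ratio of means was 7.56, with a log2 fold change of 1.13 (SE 0.0884, limma adjusted p = 4.22e-05). Its partner Slc3a2 (ENSMUSG00000010095) encodes the heavy chain 4F2hc, which brings several light chains to the cell surface. It was at 7.05, 8.83 and 8.60 in controls and at 9.97, 10.6 and 11.4 after denervation. Here the groups lay close, and the 1.3-fold rise (log2 fold change 0.35, SE 0.106, limma adjusted p = 0.0289) lost its call without control 1, denervated 2 or denervated 3 (limma adjusted p = 0.0797, 0.0622 and 0.0872, with 4.59e-05 to 0.0872 over its 16 alternatives).

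Among the other light chains, 2 further genes were higher and 3 were not called as deposited. With equal protein-coding totals all 6 tested light chains were called higher. With totals without the 20 most abundant rows, and with TPM without the library factor, 4 were. Slc7a10 (ENSMUSG00000030495) encodes Asc-1, an exchanger of small neutral amino acids known from brain and fat cells. It was at 0.936, 1.23 and 1.3 in controls and at 1.97, 2.22 and 3.69 after denervation. The groups did not overlap, but denervated 3 stood well above its group. The log2 fold change was 0.73 (SE 0.176, limma adjusted p = 0.0111), and 377 exonic bases are shared with Lrp3 on the opposite strand, itself at means of 1.46 and 2.19. Adipocyte markers moved the same way, with all 4 tested higher and the list's summed level at 1.82 to 6.01 in controls and 9.64 to 11.9 after denervation. None was listed at 0 in all 6 libraries, and their part in the change of Slc7a10 was not tested.

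Slc7a15 (ENSMUSG00000020600), a light chain gene that prefers aromatic amino acids in the mouse, was at 0.117, 0.032 and 0.011 in controls and at 0.655, 0.854 and 0.887 after denervation. All 3 controls were far under the level filter (log2 fold change 0.77, SE 0.0932, limma adjusted p = 0.000379). Slc7a8, which encodes LAT2, had 1.62, 1.85 and 2.03 in controls and 1.62, 1.58 and 2.44 after denervation. These values overlap throughout (log2 fold change 0.01, SE 0.133, limma adjusted p = 0.94). Slc7a6, the light chain y+LAT2, had means of 1.59 ± 0.133 and 2.07 ± 0.268 without overlap, and its log2 fold change of 0.24 was not called (SE 0.101, limma adjusted p = 0.0814). Slc7a11, the cystine exchanger xCT, stood at 0.817 ± 0.0515 and 0.912 ± 0.0996 and was not called (limma adjusted p = 0.526).

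The cationic carriers changed in opposite directions. Slc7a2 (ENSMUSG00000031596) encodes CAT2, a carrier of arginine, lysine and ornithine that occurs in a low-affinity form in liver and muscle. It was at 10.7, 8.87 and 13.5 in controls and at 2.94, 2.67 and 2.73 after denervation. The 3 denervated mice were nearly equal and below every control. This was the deepest fall among the carriers, to 0.252 of the control mean, with a log2 fold change of -1.65 (SE 0.142, limma adjusted p = 6.53e-05). Slc7a1 (ENSMUSG00000041313), which encodes the widespread cationic carrier CAT1, had means of 0.447 ± 0.096 and 0.786 ± 0.089. Its log2 fold change of 0.30 (SE 0.0924, limma adjusted p = 0.0284) lost its call when any mouse but control 2 was left out and with quantile normalization (adjusted p up to 0.0827, with 0.00036 to 0.0827 over its 15 alternatives).

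The Slc43 family, carriers that let amino acids or nucleobases pass along their gradient, split as well. Slc43a2 (ENSMUSG00000038178) encodes LAT4, a carrier of branched-chain amino acids, methionine and phenylalanine. It was at 3.75, 2.92 and 3.73 in controls and at 5.14, 4.91 and 7.46 after denervation. Denervated 3 was the highest, and all denervated mice were above the controls (log2 fold change 0.60, SE 0.157, limma adjusted p = 0.0154). In GENCODE M21 an antisense transcript, Gm45606, shares 922 exonic bases with it. Slc43a1, which encodes the related LAT3, had means of 2.36 ± 0.389 and 1.83 ± 0.18 and was not called as deposited (log2 fold change -0.24, limma adjusted p = 0.112). With equal protein-coding totals its log2 fold change turned to 0.36 and was called higher.

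Slc43a3 (ENSMUSG00000027074), now known as a carrier of purine nucleobases, was at 11.02, 15.6 and 13.7 in controls and at 7.33, 6.53 and 8.40 after denervation. All denervated values were below the controls. The log2 fold change was -0.77 as deposited (SE 0.141, limma adjusted p = 0.003) and 0.04 with equal protein-coding totals (adjusted p = 0.797, with 0.00174 to 0.797 over its 16 alternatives). Of 8 endothelial markers 7 were lower as deposited, and 2 lower and 1 higher with equal protein-coding totals, with the list's summed level at 75.9 to 90.5 in controls and 44.7 to 47.7 after denervation. None was listed at 0 in all libraries, and their part in the change of Slc43a3 was not tested.

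Carriers of the Slc1 and Slc36 families that reached the filter were not called as deposited. With equal protein-coding totals all of them were called higher. With totals without the 20 most abundant rows, Slc1a5 and 1 of the 2 tested Slc36 genes were. Slc1a5, the neutral exchanger ASCT2, was at 3.89 ± 0.459 in controls and 4.42 ± 0.572 after denervation (log2 fold change 0.15, SE 0.115, limma adjusted p = 0.328). Slc1a1, the glutamate carrier EAAT3, was at 0.899 ± 0.135 and 0.864 ± 0.216 (limma adjusted p = 0.844), and shares 2631 exonic bases with 4430402I18Rik on the other strand. The proton-coupled carriers Slc36a1, which sits on lysosomes, and Slc36a4 had log2 fold changes of 0.10 and 0.24 (limma adjusted p = 0.541 and 0.103). Slc7a6os, which encodes no carrier, had 0.21 (limma adjusted p = 0.119).

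The remaining 28 carrier rows were under 0.5 in all 6 libraries, with a highest value of 0.491. They were left untested, and 17 of them were listed at 0 in at least 1 library. They include the monoamine carriers Slc6a2 and Slc6a4, which move transmitters and no amino acid, the GABA carriers Slc6a11 and Slc6a13, the kidney and gut carriers Slc6a18, Slc6a19 and Slc3a1, and the glial glutamate carriers Slc1a2 and Slc1a3. Slc38a1, the carrier SNAT1, was at 0.043, 0.043 and 0.034 in controls and at 0.166, 0.124 and 0.235 after denervation. At these levels the table moves in steps of about 0.01, so the values are given without a fold.

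Ratios of 2 carriers within a library do not depend on any factor that multiplies the whole library. They were taken on the deposited levels, and quantile normalization is not such a factor. The 7 pairs here were chosen after their values were seen, so the ratios are a description and carry no test. The ratio of Slc38a2 to Slc38a3 was 0.622 to 0.670 in controls and 2.12 to 2.84 in denervated muscle, and that of Slc38a2 to Slc38a4 was 0.902 to 1.25 and 2.49 to 3.24. Slc7a1 to Slc7a2 went from 0.0317 to 0.0593 in controls to 0.242 to 0.332, so CAT2 transcript remained the more abundant of the pair. Slc7a5 reached 0.645 to 1.10 of Slc7a8 after denervation, against 0.0931 to 0.15 in controls. Against its heavy chain Slc3a2 it went from 0.0195 to 0.0355 in controls to 0.138 to 0.167. Slc43a2 to Slc43a1 was 1.33 to 1.79 in controls and 2.52 to 4.28 after denervation. Slc6a6 to Slc6a9 overlapped, at 2.87 to 7.91 in controls and 6.43 to 7.81 after denervation.

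**Figure D3:**
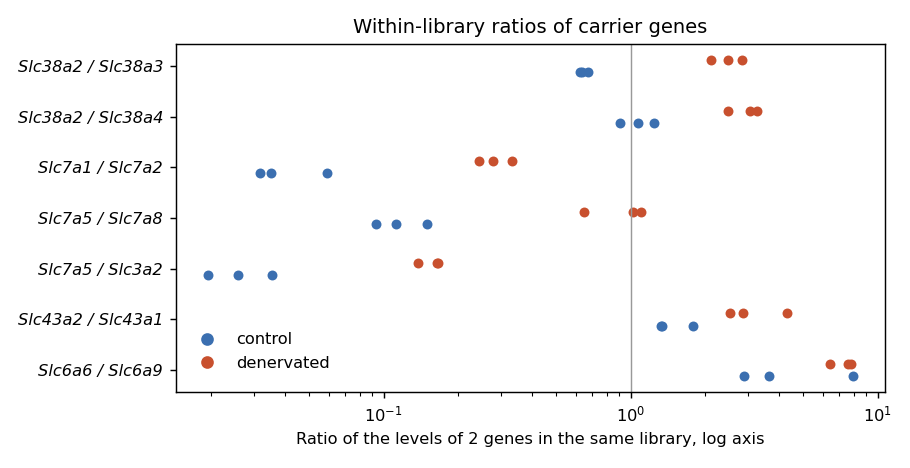
The plot shows the ratio of the levels of 2 carrier genes in the same library on a log axis, for 3 control (blue) and 3 denervated (orange) mice, with a line at equal levels. The groups are apart in every pair but Slc6a6 to Slc6a9, where the denervated mice lie within the control range, and the ratio of Slc38a2 to Slc38a3 crosses from below 1 to above 2.

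The balance of rises and falls depends on the scaling, and protein-coding rows take a different share of each group's total. Protein-coding rows made up 30.8% to 32.7% of the total in controls and 17.5% to 19.0% after denervation. Equal protein-coding totals moved the median of all tested genes to 0.60, and totals without the 20 most abundant rows moved it to 0.23. With equal protein-coding totals 24 of 27 carrier rows were higher and 1 lower, or 88.9% higher against 73.6% of all genes. With totals without the 20 most abundant rows 17 of 28 were higher and 4 lower, or 60.7% higher against 40.4%. Slc7a2 was the row called lower under each of the 6 scalings. Taken less the median of all genes, the 16 called rows kept their sign under every scaling in which they were tested. Apart from quantile normalization, these scalings multiply a whole library by a factor, and taking off the median largely removes that shift. The rows were also chosen by their calls in these data, so the kept signs are a description and no test of stability. On that scale Slc6a6 stood at 1.19 to 1.42, Slc38a2 at 0.94 to 1.19, Slc7a5 at 0.89 to 1.14, Slc38a3 at -0.91 to -0.67 and Slc7a2 at -1.64 to -1.51. Slc7a1 came closest to the median, at 0.04 to 0.32.

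**Figure D4:**
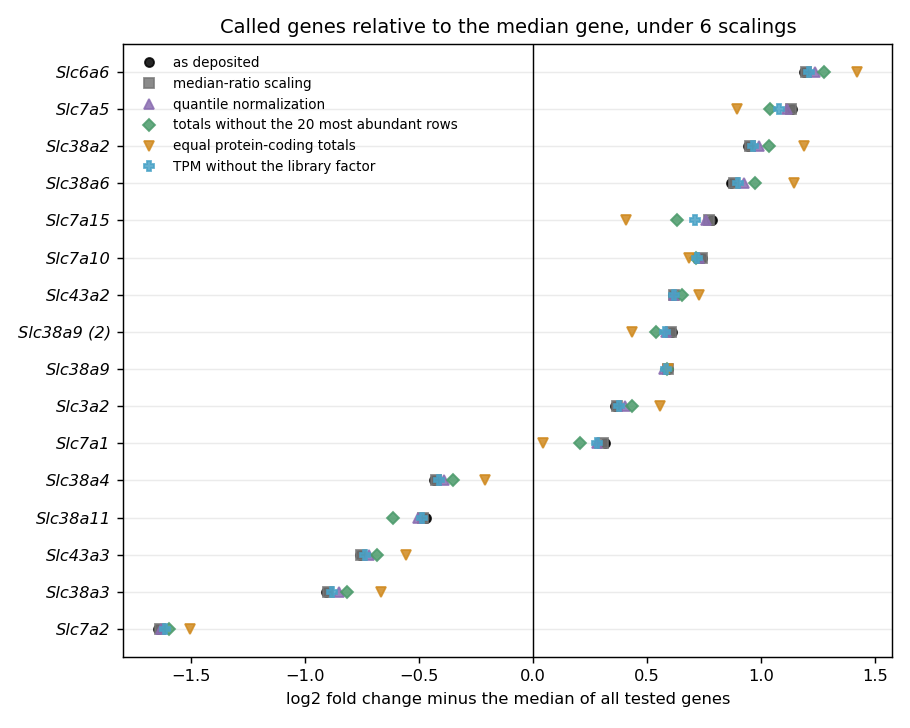
The plot shows the log2 fold change minus the median of all tested genes for the 16 called rows, under 6 scalings of the libraries drawn as different symbols. Rows above the median gene stay to the right of 0 and rows below it to the left, with Slc7a1 at 0.04 the nearest. Taking off the median largely removes a factor that multiplies a whole library, so the kept sides are a description.

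Markers of other cell types moved too. As deposited, 7 of 8 pericyte and smooth muscle markers, 6 of 8 fibro-adipogenic markers, 3 of 5 Schwann cell markers, 1 of 4 mast cell markers and 1 of 4 erythroid markers were lower. The erythroid count was 0 without control 1, denervated 1 or denervated 3 (1 at an unadjusted p below 0.05 in limma) and 3 without control 3. With equal protein-coding totals 3, 1, 3, 0 and 0 of these lists were lower and 2, 2, 2, 1 and 0 higher. Of the macrophage markers 4 of 7 were higher, with a summed level of 16.2 to 19.4 in controls and 33.8 to 37.8 after denervation, and of the satellite cell markers 2 of 3. All 8 lymphocyte markers were under the level filter. Macrophages can express Slc7a5 and Slc7a7, and Slc7a7, the light chain y+LAT1, was at 0.341 ± 0.0875 and 0.357 ± 0.0672. Their part in the change of Slc7a5 was not tested.

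Promoter windows of RefSeq, from 250 bases before to 50 after an annotated start on GRCm38.p6, were found for 39 of the 55 symbols, 10 of them called. They were searched on both strands for TGATGNAA, the core of the element through which Atf4 and C/EBP factors act. It occurred in 3.97% of all 32841 windows and in 4 of the 59 windows of carrier genes, which belong to Slc7a11, Slc1a4 and Slc7a7. None of the windows of the 10 called carriers holds these letters. Slc6a6, Slc7a5, Slc7a2, Slc38a3 and Slc43a3 were not searched. The windows shown are Slc7a11 (chr3:50443564-50443863, minus strand) because it holds the element as an inverted pair, and Slc38a2 (chr15:96699679-96699978, minus strand) because it is the abundant carrier that rose and its known element lies in the first intron, outside the window. Capitals mark the matches, which begin at -66 and -47 from the start in Slc7a11.
Slc7a11: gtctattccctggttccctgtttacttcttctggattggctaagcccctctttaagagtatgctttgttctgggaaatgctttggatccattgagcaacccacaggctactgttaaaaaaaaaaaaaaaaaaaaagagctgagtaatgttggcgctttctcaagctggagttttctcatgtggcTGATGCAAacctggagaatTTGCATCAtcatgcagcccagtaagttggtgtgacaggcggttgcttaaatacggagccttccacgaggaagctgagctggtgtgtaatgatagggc
Slc38a2: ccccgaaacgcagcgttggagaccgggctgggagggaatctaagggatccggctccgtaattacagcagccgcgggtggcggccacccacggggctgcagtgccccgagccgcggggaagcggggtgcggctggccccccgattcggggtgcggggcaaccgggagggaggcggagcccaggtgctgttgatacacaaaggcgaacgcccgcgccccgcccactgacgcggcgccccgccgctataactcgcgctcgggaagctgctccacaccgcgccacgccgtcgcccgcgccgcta

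Atf4 and genes it is known to activate did not move as one. Atf4 was at 55.3 ± 4.44 in controls and 31.8 ± 1.69 after denervation, at -0.78 on the log2 scale as deposited (limma adjusted p = 0.000333), turning to 0.10 with equal protein-coding totals. Of 21 tested genes of that list 5 were higher and 5 lower as deposited, with a median of 0.05, and 11 of 19 higher and 2 lower with equal protein-coding totals. Psat1, an enzyme of serine synthesis, rose from 0.283 ± 0.154 to 1.86 ± 0.571, Cebpb, a transcription factor, from 9.09 ± 1.80 to 41.1 ± 9.64, and Eif4ebp1, which restrains translation, from 20.6 ± 1.99 to 30.8 ± 2.24. Chac1, which degrades glutathione, fell from 31.9 ± 8.71 to 5.02 ± 0.843, and Gpt2, the mitochondrial alanine aminotransferase, from 43.3 ± 5.86 to 12.5 ± 0.268. Asns, asparagine synthetase and a standard readout of Atf4, was at 0.406 ± 0.234 and 0.602 ± 0.225 and was not called (limma adjusted p = 0.342).

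Among genes of amino acid sensing by mTORC1, 7 of 28 were higher and 6 lower as deposited, at a median of 0.06, and 22 higher and 0 lower with equal protein-coding totals (23 and 0 at an unadjusted p below 0.05 in limma). Sesn3, a stress-induced inhibitor of mTORC1, rose from 2.00 ± 0.229 to 7.31 ± 1.01, Rptor, the scaffold of the complex, from 6.43 ± 0.20 to 11.9 ± 0.602, and Nprl3, a part of the inhibitory GATOR1 complex, from 8.06 ± 0.288 to 13.5 ± 1.48. Fnip1, a partner of folliculin, fell from 8.66 ± 0.277 to 4.47 ± 0.589 as deposited, but was not called lower with equal protein-coding totals. Sesn1 and Rragd, a sestrin and a Rag GTPase, had values of -0.52 and -0.75 as deposited, which turned to 0.06 and 0.10 with equal protein-coding totals. The leucine sensor Sesn2 was not called (log2 fold change 0.05, limma adjusted p = 0.681).

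Genes of branched-chain amino acid breakdown, and enzymes that make or use glutamine, glutamate, alanine and aspartate, were mostly lower as deposited. Of 19 tested genes of branched-chain amino acid breakdown 12 were lower and 0 higher in limma, also at an unadjusted p below 0.05, with a median of -0.58. Dld fell from 44.0 ± 4.46 to 18.0 ± 2.48 Auh from 18.7 ± 2.64 to 8.05 ± 0.136, and Ppm1k, the phosphatase that activates the pathway, from 2.88 ± 0.366 to 1.06 ± 0.137, while Bcat2, which takes the first step in muscle, was not called (limma adjusted p = 0.175). Of 14 enzymes of glutamine, glutamate, alanine and aspartate 9 were lower and 2 higher, with a median of -0.78. Got1, the cytosolic aspartate aminotransferase, fell from 119 ± 4.71 to 41.9 ± 1.57, and Adssl1, the muscle adenylosuccinate synthase, from 99.2 ± 7.06 to 19.9 ± 0.645. Pycr1, an enzyme of proline synthesis, rose from 1.13 ± 0.269 to 1.86 ± 0.299, but none of the list was called higher without control 1, control 3, denervated 1 or denervated 3 (0 in limma, 2 at an unadjusted p below 0.05), and 1 was without control 2. Glul, which makes glutamine, was at 65.1 ± 13.0 and 71.5 ± 4.12 and was not called (limma adjusted p = 0.424). With equal protein-coding totals both medians turned positive, at 0.22 and 0.0073, against 0.60 for all genes, and 6 genes of each list were higher and 3 lower.

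The highest log2 fold change of the 7 lists of related genes was that of an enzyme of arginine synthesis. Ass1, which makes arginine from citrulline together with Asl, rose from 0.688 ± 0.229 to 16.1 ± 1.40 (log2 fold change 3.35, limma adjusted p = 1.49e-06), and Asl from 0.735 ± 0.193 to 2.26 ± 0.23. Nos1, the neuronal nitric oxide synthase of muscle, fell from 11.5 ± 1.37 to 4.95 ± 0.842 as deposited. Nos3, its endothelial relative, had 2.27 ± 0.199 and 1.19 ± 0.0358. Neither was called lower with equal protein-coding totals. Gclm, a subunit of the enzyme that begins glutathione synthesis, rose from 2.62 ± 1.09 to 4.76 ± 0.392, and Chac2, which degrades glutathione, had a value of -0.60 as deposited and 0.024 with equal protein-coding totals. In that list of arginine, taurine and glutathione enzymes 4 of 13 were higher and 3 lower as deposited, with 2 higher without control 2, and 9 higher and 0 lower with those totals (0 also at an unadjusted p below 0.05 in limma). The cytosolic aminoacyl-tRNA synthetases, which load amino acids onto tRNA, had 5 of 20 higher and 6 lower as deposited, and 19 higher and 0 lower with equal protein-coding totals (0 also at an unadjusted p below 0.05 in limma). Dars rose from 9.60 ± 0.834 to 25.6 ± 2.10, Vars from 6.57 ± 0.426 to 15.7 ± 0.919 and Gars from 12.4 ± 1.03 to 23.4 ± 2.22. Yars, Sars and Iars had values of -0.78, -0.55 and -0.45 as deposited, and of -0.01, 0.30 and 0.35 with those totals.

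Carriers outside the chosen families had 1 of 10 tested genes higher and 4 lower as deposited, but 2 lower without control 2 and 2 lower with TPM without the library factor. Slc15a4, a lysosomal carrier of histidine and peptides, rose from 2.85 ± 0.59 to 7.46 ± 0.627. Slc25a12, the mitochondrial aspartate and glutamate carrier, fell from 181 ± 13.9 to 73.1 ± 10.9. Slc16a10, the aromatic amino acid carrier TAT1, stood at -0.42 as deposited and at 0.34 with equal protein-coding totals, and Slc25a22, a mitochondrial glutamate carrier, at -0.37 and 0.37. Under those totals 7 of the 10 were higher and 1 lower.

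**Figure D5:**
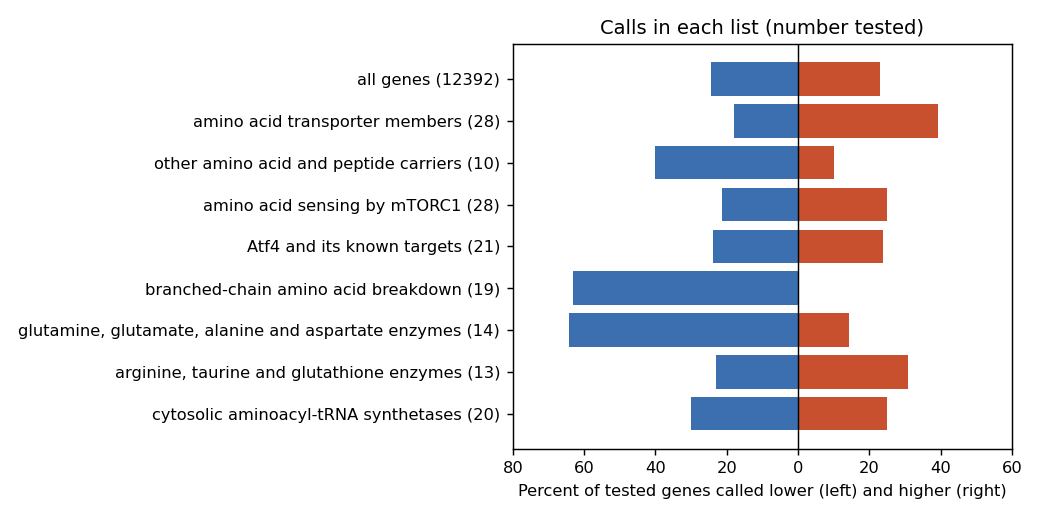
The bars show the percentage of tested genes called lower (left, blue) and higher (right, orange) as deposited, for all genes, the carrier rows and 7 lists of related genes, with the number tested in brackets. All genes stand at 24.3% lower and 22.9% higher, the carriers at 17.9% and 39.3%.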

How the data were processed

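Per the labels' protocols, RNA of whole gastrocnemius was extracted with Qiazol and sequenced as paired reads of 50 bp after a standard Illumina mRNA preparation. The submitters' processing notes list edgeR 3.12.1, RSEM 1.3.0, Bowtie2 2.2.9 and the build NCBIM37, without roles. No label or header states the strand setting or the annotation release. The deposited table holds a signal with no named unit. Below 100, its values lie within 0.00055 of whole multiples of 0.01 times a factor per library (0.977 to 1.13), as TPM rounded to 0.01 and multiplied by that factor would. TPM keeps no read counts, so depth is unknown and no counting interval was computed.

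Rows that reached 0.5 in 3 or more of the 6 libraries were tested on log2(signal + 1) with limma 3.58.1 in R 4.3.3 (intensity trend, 4 residual degrees of freedom, two-sided, Benjamini-Hochberg over all tested genes). Since the table holds no counts, the design's count test did not apply. The procedure was tested on simulated data that held no shift of scale between the groups, so that test does not bear on the choice of scaling. An exact permutation test of 3 against 3 mice cannot go below 0.1. The carriers, gene lists and tests were chosen with earlier results of these data known. Every tested carrier is named. Values per mouse are given for up to 10 called rises and 10 called falls without overlap and for the 6 most abundant rows. Of each list of related genes, up to 3 called genes per direction are named, plus 6 index genes (Atf4, Asns, Sesn2, Sesn1, Glul, Bcat2). A few genes are not reported here. Carriers given with per-mouse values beyond this were chosen after their values were seen. GENCODE M21 and RefSeq are on GRCm38, not the submitters' build, so they served for names, exon overlaps and promoter windows only, and genes have no coordinates here. Without a stated strand, reads from overlapping genes on opposite strands cannot be told apart.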

Additional observations from a re-analysis of the deposited data

How the results depend on the processing

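Across 16 alternatives, 9 of the 11 higher carrier rows and 2 of the 5 lower ones kept their call wherever they were tested. The lower ones were Slc7a2 and Slc38a11. Slc38a11 was not tested with equal protein-coding totals and passed the level filter only through the controls. Slc7a5 and Slc7a15, counted among the 9, passed it only through the denervated mice. The calls of Slc38a11, Slc7a5 and Slc7a15 therefore say nothing of stability. Totals without the 20 most abundant rows gave 17 carriers higher, with 5015 genes higher and 1599 lower in all, and equal protein-coding totals gave 24 carriers higher and 1 lower, with 9269 genes higher and 649 lower, against 11 and 5 carriers and 2840 and 3017 genes as deposited. Leaving out each mouse gave 9 to 11 carriers higher and 5 lower, with 2390 to 2556 genes higher and 2456 to 2742 lower. The replicate block gave 11 carriers higher and 5 lower, the same 16 calls, with 2636 genes higher and 2772 lower. Deviations of same-numbered mice of the groups correlated at -0.01, -0.10 and 0.02, and those of differently numbered mice at -0.13 to 0.12. Not every mouse correlated best with its own number. With 3 mice per group these values cannot show whether same-numbered mice were paired. Among genes called in either setting, signs turned only with equal protein-coding totals. These gave log2 fold changes of 0.39 for Slc1a1, 0.80 for Slc38a10, 0.39 for Slc38a4, 0.36 for Slc43a1 and 0.042 for Slc43a3. Of the listed genes they gave 0.10 for Atf4, 0.59 for Bcat2, 0.024 for Chac2, 0.35 for Iars, 0.10 for Rragd, 0.30 for Sars, 0.064 for Sesn1, 0.34 for Slc16a10 and 0.37 for Slc25a22. A shift of the whole scale, 0.60 for the median gene, is built into that setting. Of 440 carrier values under alternatives, 11 lost and 16 gained a call. In all 16 changed sign, 5 as listed above and 11 not called in either setting, for Slc1a1, Slc38a10 and Slc7a8. Low levels limit what can be said of the 28 untested rows.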
